A study of Mus musculus with 15 samples.

Results

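The tone of an artery is set by ion channels and calcium pumps of its smooth muscle cells, and 10 genes that encode them were followed in the mouse aorta: Kcnma1, Kcnmb1, Cacna1c, Cacnb2, Kcnj8, Abcc9, Itpr1, Trpc6, Kcna5 and Atp2a2. The members were all probe sets of the expression array that are annotated to exactly 1 gene, that gene being on the list. This gave 23 probe sets of 9 genes, out of 45037 probe sets and 18193 genes. No probe set is annotated to Itpr1 alone in the table used, so Itpr1, a calcium release channel, was not analysed here. Where a gene had several probe sets, the one with the highest mean over all arrays was taken as its lead.

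The 15 arrays measured RNA of entire aortas, taken between root and bifurcation, of C57BL/6 males that were 9 weeks old. All mice were Apoe null, so the controls lack apolipoprotein E as well. To make mice diabetic, streptozotocin, a toxin of insulin-producing cells, was injected on 5 days in a row at 65 mg/kg, beginning at 6 weeks. Non-diabetic mice were given citrate buffer. The 4 groups were non-diabetic Apoe null (n = 4, replicates 5 to 8), diabetic Apoe null (n = 4, replicates 1 to 4), non-diabetic Apoe/RAGE null (n = 3, replicates 13 to 15) and diabetic Apoe/RAGE null (n = 4, replicates 9 to 12). Apoe/RAGE null mice also lack the product of Ager, RAGE, a receptor that binds advanced glycation end products. The labels name a commercial source for Apoe null mice and a laboratory colony for those that also lack RAGE, so genotype and colony cannot be told apart.

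In smooth muscle, calcium enters through L-type voltage-gated channels when the membrane depolarises and leads to contraction. Potassium channels oppose this by carrying current that brings the membrane back towards rest. Calcium released from or pumped back into the sarcoplasmic reticulum shapes both processes, because local release opens large-conductance potassium channels. In bulk tissue, fewer smooth muscle cells and less RNA per cell cannot be told apart.

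Levels are the deposited log2 values, so a difference of 1 is a factor of 2, and levels of different probe sets are not compared with each other. A difference passed the test when its adjusted p was under 0.05 in a limma fit over all 15 arrays and all 45037 probe sets. No member passed in any comparison. For each comparison the number of members with an unadjusted p under 0.05 is therefore given beside the share of all probe sets that reach the same level, called the background below.

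The array medians lay between 4.35 and 4.42 and the correlations between arrays between 0.972 and 0.997. All 10 smooth muscle markers looked at were above the median probe set (4.37), among them Acta2 at 13.19 to 13.45 and Myh11 at 11.75 to 12.48. Ager itself was not lower where it is deleted: its probe set 1441958_s_at was at 4.17 to 4.69 in the Apoe null arrays and at 4.89 to 5.09 in the non-diabetic Apoe/RAGE null arrays. In diabetic Apoe/RAGE null replicates 9 to 12 it was at 4.63, 4.48, 5.36 and 4.95, so replicates 9 and 10 lie in the Apoe null range and 11 and 12 above it. Decr2, on chromosome 17 like Ager, was at 5.32 to 6.01 in the Apoe null arrays and at 6.84 to 6.98 in the non-diabetic Apoe/RAGE null arrays. In the diabetic Apoe/RAGE null group it was at 5.19 and 5.10 in replicates 9 and 10, within or below the Apoe null range, and at 7.40 and 7.56 in replicates 11 and 12, which is the same split. The dimmer Ager probe set 1420428_at did not show the split, at 3.41, 3.50, 3.34 and 3.29 in replicates 9 to 12. Glo1 was also checked: 1451240_a_at was at 9.27, 9.19, 9.56 and 9.31, and the Apoe null arrays reached 9.38. The other Glo1 probe sets were lower in replicates 9 and 10 than in 11 and 12. On Ager 1441958_s_at and Decr2 the libraries labelled diabetic Apoe/RAGE null replicates 9 and 10 thus stand apart from the rest of their group. Counts of calls and several differences are therefore also given without replicates 9 and 10.

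Promoters are shown for 4 members. They are Kcnma1 and Kcnmb1, which form the same channel, Kcna5 and Trpc6. The differences of Kcna5 ran opposite to those of most members, except between the genotypes without diabetes. Of the 8 members with a promoter to search, only Trpc6 has a CArG box. Each promoter is the 300 bases from 250 before to 50 after the annotated start, from RefSeq on build GRCm38.p6: chr14:24004156-24004455 on the minus strand for Kcnma1, chr11:33962763-33963062 on the plus strand for Kcnmb1, chr6:126535506-126535805 on the minus strand for Kcna5 and chr9:8543892-8544191 on the plus strand for Trpc6. They are written 5′ to 3′ in the direction of the gene, with motif matches in capitals.
Kcnma1: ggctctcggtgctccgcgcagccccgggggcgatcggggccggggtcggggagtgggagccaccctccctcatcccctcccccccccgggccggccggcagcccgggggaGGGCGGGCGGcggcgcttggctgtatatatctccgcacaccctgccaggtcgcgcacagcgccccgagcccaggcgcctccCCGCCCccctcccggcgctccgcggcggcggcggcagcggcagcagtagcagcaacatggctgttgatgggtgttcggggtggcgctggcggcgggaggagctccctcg
Kcnmb1: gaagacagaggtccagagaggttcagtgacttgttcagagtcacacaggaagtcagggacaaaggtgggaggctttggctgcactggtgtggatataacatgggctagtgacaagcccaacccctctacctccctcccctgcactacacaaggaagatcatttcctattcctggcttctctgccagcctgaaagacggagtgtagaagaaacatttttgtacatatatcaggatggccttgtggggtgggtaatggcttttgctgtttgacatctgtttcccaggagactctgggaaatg
Kcna5: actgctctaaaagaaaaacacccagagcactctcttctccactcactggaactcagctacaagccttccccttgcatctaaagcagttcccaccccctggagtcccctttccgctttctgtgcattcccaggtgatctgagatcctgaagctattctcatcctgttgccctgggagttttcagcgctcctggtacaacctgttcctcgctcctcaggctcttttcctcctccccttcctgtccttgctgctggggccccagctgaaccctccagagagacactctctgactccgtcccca
Trpc6: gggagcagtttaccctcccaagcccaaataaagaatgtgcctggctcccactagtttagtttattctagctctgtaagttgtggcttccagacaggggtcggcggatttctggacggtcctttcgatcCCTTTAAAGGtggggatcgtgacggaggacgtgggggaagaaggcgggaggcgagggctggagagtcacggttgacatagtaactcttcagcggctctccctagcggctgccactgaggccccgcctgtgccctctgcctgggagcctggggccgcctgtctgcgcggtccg
The motifs searched on both strands were the CArG box, to which serum response factor binds in many smooth muscle genes, TATAAA and GGGCGG, a GC box. The Kcnma1 promoter, with a GC content of 78%, holds 3 matches of GGGCGG, a pair of which overlap, while the Kcnmb1 promoter has a GC content of 49.7% and no match. The Kcna5 promoter has no match either, at a GC content of 55%. The Trpc6 promoter holds 1 CArG box, at positions −122 to −113 from the start. Of all 32851 mouse promoters of this length, 1.63% hold a CArG box, 13.6% TATAAA and 35.7% GGGCGG. A match is a description of the sequence and no evidence of binding. Among the members, 8 had a promoter in the table used, and Itpr1 and Atp2a2 had none. Kcnj8 and Abcc9 are neighbours on chromosome 6, where Cacna1c, Kcna5 and Itpr1 also lie, and no member is on chromosome 17.

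**Figure D1:**
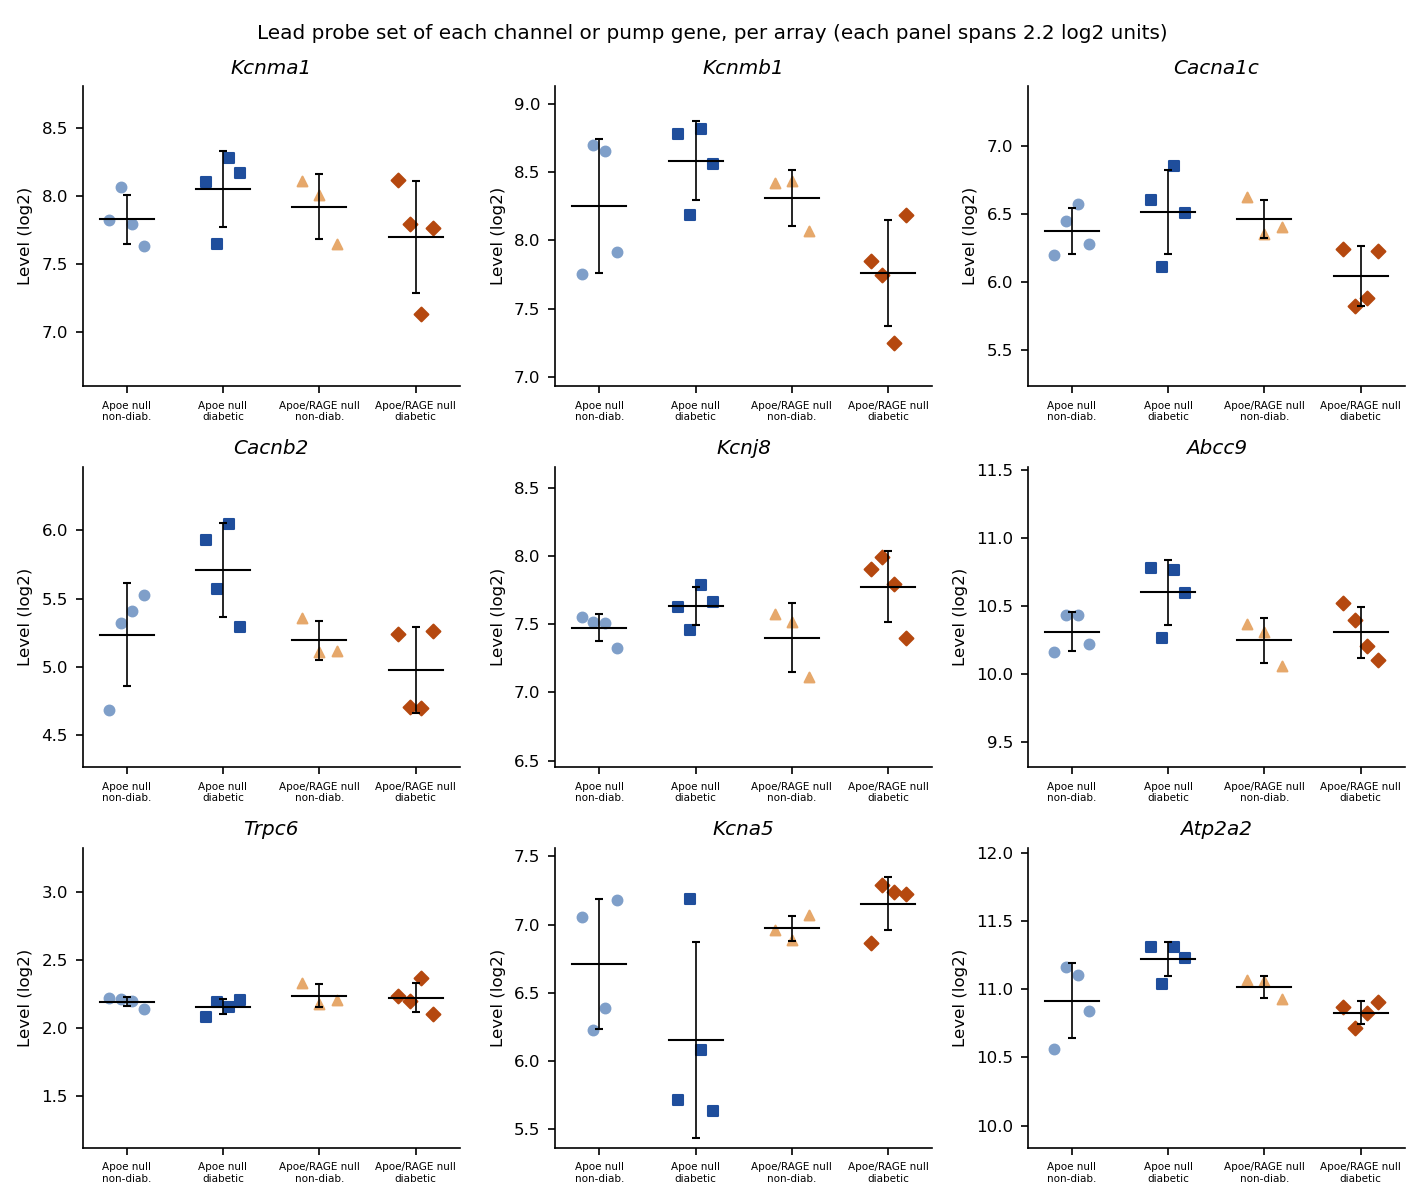
Level (log2) of the lead probe set of each of the 9 measured genes in every array, by group; points are arrays and bars the group mean with its SD. When the groups of a gene are ordered by their means, neighbours overlap for every gene. The diabetic and non-diabetic Apoe/RAGE null groups are separate for Cacna1c and Atp2a2. Kcna5 is low in 3 of the 4 diabetic Apoe null arrays.

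The first comparison asked how diabetic aortas with and without RAGE differ. Most members were lower in diabetic Apoe/RAGE null than in diabetic Apoe null aorta, Kcna5 was higher, and Kcnj8 and Trpc6 differed little. Of the 23 probe sets, 11 had an unadjusted p under 0.05, 10 lower and 1 higher, against a background of 14.8% of probe sets (9.21% lower and 5.6% higher). None passed the test, which 0.244% of probe sets did, and the members' adjusted p ran from 0.119 to 0.94 in limma. The median difference of the members was −0.29, with 17 negative, against −0.0035 over all probe sets. In 3 members, both Cacnb2 probe sets and the Atp2a2 lead, the groups did not overlap, all lower, against 6.5% of probe sets (4.7% lower). Probe sets of 1 gene are not independent, so these are not counts of genes. Without replicates 9 and 10 again 11 had an unadjusted p under 0.05, against 16.4% of probe sets, but only 8 of them were among the first 11, and 18 of the 23 signs were kept.

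Markers of other cells also set single arrays of the diabetic Apoe/RAGE null group apart. The score of 6 B and T cell markers, 1 of them above the median probe set, was 3.32 in replicate 10 and −0.65 to 0.83 in all other arrays. The score of 5 neutrophil markers, 3 above the median, was 1.30 and 1.39 in replicates 10 and 11 and at most 0.33 elsewhere. The score of 5 airway markers, 3 above the median, was 1.83 in replicate 11, the array lowest in Kcnmb1 and in the Kcnma1 lead, and at most 0.59 elsewhere. Markers within these scores varied unequally. Ltf ranged from 3.44 to 8.56 and S100a8 from 2.94 to 6.99, but Ngp only from 3.52 to 4.37 and Camp from 3.48 to 4.09. Among airway markers Scgb1a1 ranged from 3.12 to 10.90 and Scgb3a2 from 4.25 to 9.66. Sftpc ranged only from 3.31 to 3.75, Sftpb from 4.18 to 4.69 and Sftpa1 from 2.67 to 3.62. The part of these other cells in the differences was not tested.

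Kcnma1 encodes the pore of the large-conductance calcium-activated potassium channel and Kcnmb1 the beta subunit that raises its calcium sensitivity in smooth muscle. Kcnmb1 (1421400_at) was at 8.78, 8.18, 8.82 and 8.56 in diabetic Apoe null replicates 1 to 4 and at 7.85, 7.75, 7.25 and 8.19 in diabetic Apoe/RAGE null replicates 9 to 12. The groups overlap only because replicate 12 lies just above replicate 2. The difference was −0.83 ± 0.23 (SE), a 1.77-fold lower level, with an adjusted p of 0.124 in limma. The second Kcnmb1 probe set, 1421401_at, which is below the median probe set, gave −0.66 ± 0.23 with an adjusted p of 0.199. Both rank the arrays alike, with r = 0.963 over the 15 arrays.

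In the non-diabetic groups Kcnmb1 was at 7.75, 8.70, 8.66 and 7.91 in Apoe null replicates 5 to 8 and at 8.42, 8.44 and 8.07 in Apoe/RAGE null replicates 13 to 15. The Apoe null values form a low and a high pair, and the Apoe/RAGE null values lie between the pairs. Group means ran from 8.58 ± 0.29 (SD, n = 4) in diabetic Apoe null over 8.31 ± 0.21 (n = 3) and 8.25 ± 0.49 (n = 4) in non-diabetic Apoe/RAGE null and Apoe null to 7.76 ± 0.39 (n = 4) in diabetic Apoe/RAGE null. Neighbours in that order overlap. The smooth muscle marker score was the mean of the 10 markers after centring each on its own mean. It lay at −0.15 to 0.35 in diabetic Apoe null and at −0.44 to 0.07 in diabetic Apoe/RAGE null aorta. Over the 15 arrays its correlation was 0.916 with the Kcnmb1 lead, 0.869 with that of Cacna1c, 0.846 with Kcnma1 and 0.794 with Cacnb2. With Kcnj8 it was 0.019 and with Trpc6 −0.428. These values carry no test, and the part of smooth muscle cells in the differences was not tested.

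The 5 probe sets of Kcnma1 differed in sign over the diabetic groups, and the disagreement rests on replicates 9 and 10. The lead, 1428948_at, ranged from 7.64 to 8.28 in diabetic Apoe null and from 7.13 to 8.12 in diabetic Apoe/RAGE null aorta, with a difference of −0.35 ± 0.19 (adjusted p = 0.415, limma). Probe set 1425987_a_at was at 6.48, 6.23, 6.66 and 6.29 in replicates 1 to 4 and at 5.89, 6.04, 5.96 and 6.27 in replicates 9 to 12, a difference of −0.37 ± 0.13 (adjusted p = 0.196). Here only replicate 12 reaches into the range of the diabetic Apoe null arrays. In contrast, 1440728_at was at 7.31 and 7.27 in replicates 9 and 10, above all other arrays, and at 6.15 and 6.59 in replicates 11 and 12. The dim probe set 1457018_at shows the same split, with 5.03 and 4.81 against 3.32 and 3.54. Without replicates 9 and 10 all 5 differences were negative: −0.60 for the lead, −0.30 for 1425987_a_at, −0.25 for 1424848_at, and −0.18 and −0.36 for the last 2, which over all arrays were 0.28 and 0.38.

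Cacna1c encodes the pore of the L-type calcium channel of smooth muscle and Cacnb2 a beta subunit that brings it to the membrane. Cacnb2 (1456401_at) was at 5.93, 5.57, 6.05 and 5.29 in diabetic Apoe null and at 5.24, 4.71, 4.70 and 5.26 in diabetic Apoe/RAGE null aorta. All 4 values of the second group lie below all 4 of the first, if narrowly. The difference was −0.73 ± 0.20, a 1.66-fold lower level, and the adjusted p of 0.119 in limma was the lowest of any member. The dim Cacnb2 probe set 1452476_at also did not overlap between the groups, at −0.58 ± 0.16 with an adjusted p of 0.123.

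Cacna1c (1435730_at) was at 6.60, 6.11, 6.85 and 6.50 in diabetic Apoe null and at 6.24, 5.82, 5.88 and 6.23 in diabetic Apoe/RAGE null aorta. Replicate 2 of the diabetic Apoe null group is the one array that lies within the other group. The difference was −0.47 ± 0.15 (adjusted p = 0.16, limma), and the second probe set, 1421297_a_at, gave −0.37 ± 0.20 (adjusted p = 0.406). Without diabetic Apoe null replicate 2, Cacna1c passed the test at −0.61 with an adjusted p of 0.0395, when 931 probe sets passed in all. Cacna1c passed with no other single array left out. Its non-diabetic means were 6.37 ± 0.17 (SD, n = 4) in Apoe null and 6.46 ± 0.14 (n = 3) in Apoe/RAGE null aorta.

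Kcna5, a voltage-gated potassium channel that limits depolarisation in vascular smooth muscle, ran the other way. Its level (1417680_at) was 5.71, 7.19, 6.08 and 5.63 in diabetic Apoe null replicates 1 to 4 and 6.86, 7.29, 7.24 and 7.23 in diabetic Apoe/RAGE null replicates 9 to 12. Of the diabetic Apoe null arrays 3 lie below every array of the other group, and replicate 2 lies among them. The difference was 1.00 ± 0.29, a 2-fold higher level, with an adjusted p of 0.131 in limma. Without diabetic Apoe null replicate 2, the array of its group nearest to the other group, it was 1.35 with an adjusted p of 0.0197 in limma, past the test. Under the same removal 931 probe sets passed in all, and Kcna5 passed with no other single array left out.

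The non-diabetic levels of Kcna5 were 7.05, 6.22, 6.39 and 7.18 in Apoe null and 6.96, 6.89 and 7.07 in Apoe/RAGE null aorta. The Apoe null values fall apart into a low and a high pair, and the Apoe/RAGE null values lie close together. Markers of brown adipocytes, which surround the mouse aorta, varied with Kcna5: the score over all 5 markers, all above the median probe set, was −0.95, −1.36 and −0.80 in diabetic Apoe null replicates 1, 3 and 4 and 0.19 in replicate 2. It ranged from −0.72 to 0.75 in diabetic Apoe/RAGE null, from 0.04 to 0.80 in non-diabetic Apoe null and from −0.13 to 0.61 in non-diabetic Apoe/RAGE null aorta. Replicate 10, with the highest Kcna5 level of all arrays, had a brown adipocyte score of −0.72. The part of these cells in the Kcna5 levels was not tested.

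**Figure D2:**
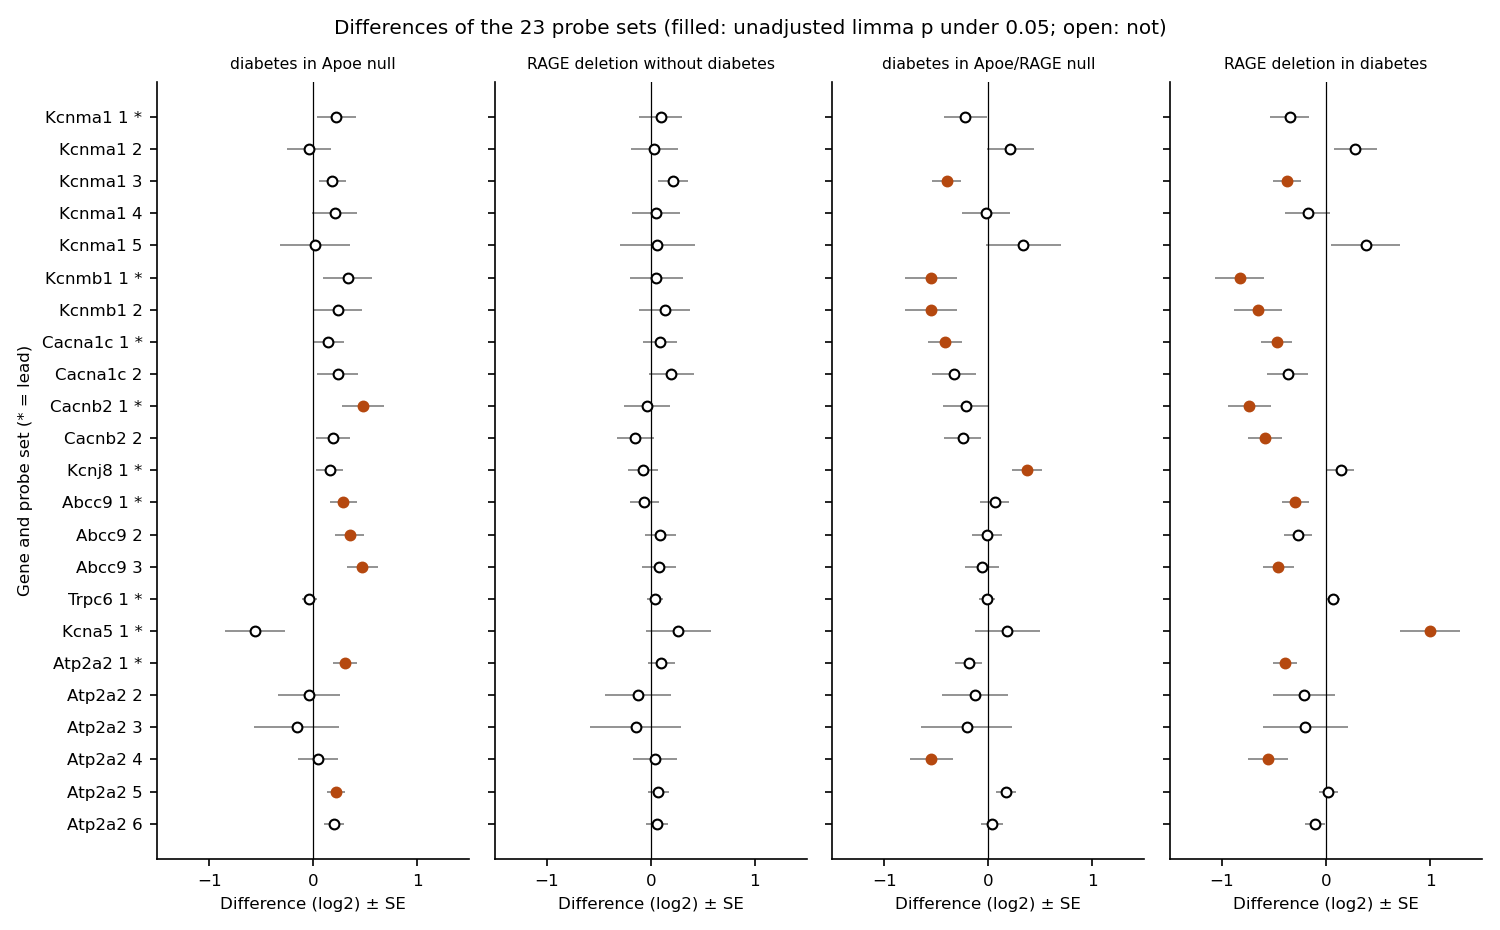
Difference (log2, with SE) of each of the 23 probe sets in the comparisons of the groups, from the limma fit over all 15 arrays; each point is a probe set. In diabetic aorta Kcnmb1, Cacnb2, Cacna1c and the Atp2a2 lead lie below 0 and Kcna5 lies above it, none with an adjusted p under 0.05.

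The ATP-sensitive potassium channel of vascular smooth muscle, which links the membrane to the cell's energy state, is made of a pore, Kcnj8, and a sulfonylurea receptor, Abcc9. No test set its parts against each other, and neither passed. Abcc9 (1435752_s_at) was at 10.78, 10.26, 10.76 and 10.60 in diabetic Apoe null and at 10.52, 10.40, 10.21 and 10.10 in diabetic Apoe/RAGE null aorta, a difference of −0.29 ± 0.13 (adjusted p = 0.301, limma). Its other probe sets gave −0.27 and −0.46, with adjusted p of 0.374 and 0.175. Without replicates 9 and 10 the 3 were −0.45, −0.45 and −0.54. Kcnj8 (1418142_at) was at 7.63, 7.45, 7.79 and 7.67 in diabetic Apoe null and at 7.90, 7.99, 7.80 and 7.40 in diabetic Apoe/RAGE null aorta. Its difference of 0.14 ± 0.13 (adjusted p = 0.674) turned to −0.03 without replicates 9 and 10, its pair of highest arrays.

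Atp2a2 encodes SERCA2, the pump that refills the sarcoplasmic reticulum with calcium, in smooth and in cardiac muscle. Its lead, 1427250_at, was at 11.31, 11.04, 11.31 and 11.23 in diabetic Apoe null and at 10.87, 10.71, 10.83 and 10.91 in diabetic Apoe/RAGE null aorta, and the groups did not overlap. The difference was −0.39 ± 0.12, a 1.31-fold lower level (adjusted p = 0.138, limma). Probe set 1427251_at gave −0.55 ± 0.19 (adjusted p = 0.196) and was lowest in replicates 9 and 10, at 7.21 and 6.96. Without them its difference was −0.28. The other Atp2a2 probe sets differed less: −0.21 for 1416551_at, −0.20 for 1452363_a_at, 0.02 for 1437797_at and −0.10 for 1443551_at. Their adjusted p ran from 0.688 to 0.94 in limma.

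A pair of Atp2a2 probe sets followed another pattern. 1416551_at and 1452363_a_at were highest in non-diabetic Apoe null replicate 8, at 12.25 and 11.01, and lowest in replicate 5 of the same group, at 10.26 and 8.17, with r = 0.974 between them over the 15 arrays. The score of 8 cardiac muscle markers, all above the median probe set, was 3.56 in replicate 8 and −1.84 in replicate 5, and between −1.39 and 1.17 in the Apoe/RAGE null and diabetic Apoe null arrays. The genes most like 1416551_at, a search added after its values were seen, were Myoz2 (r = 0.976), Ryr2 (r = 0.961) and Atp5g1 (r = 0.937), the first a sarcomere protein and the second the cardiac calcium release channel, which is itself 1 of the 8 markers. The lead probe set was at 10.84 in replicate 8, below its mean over all arrays. Which transcripts each probe set reads is not given in the sources used here.

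**Figure D3:**
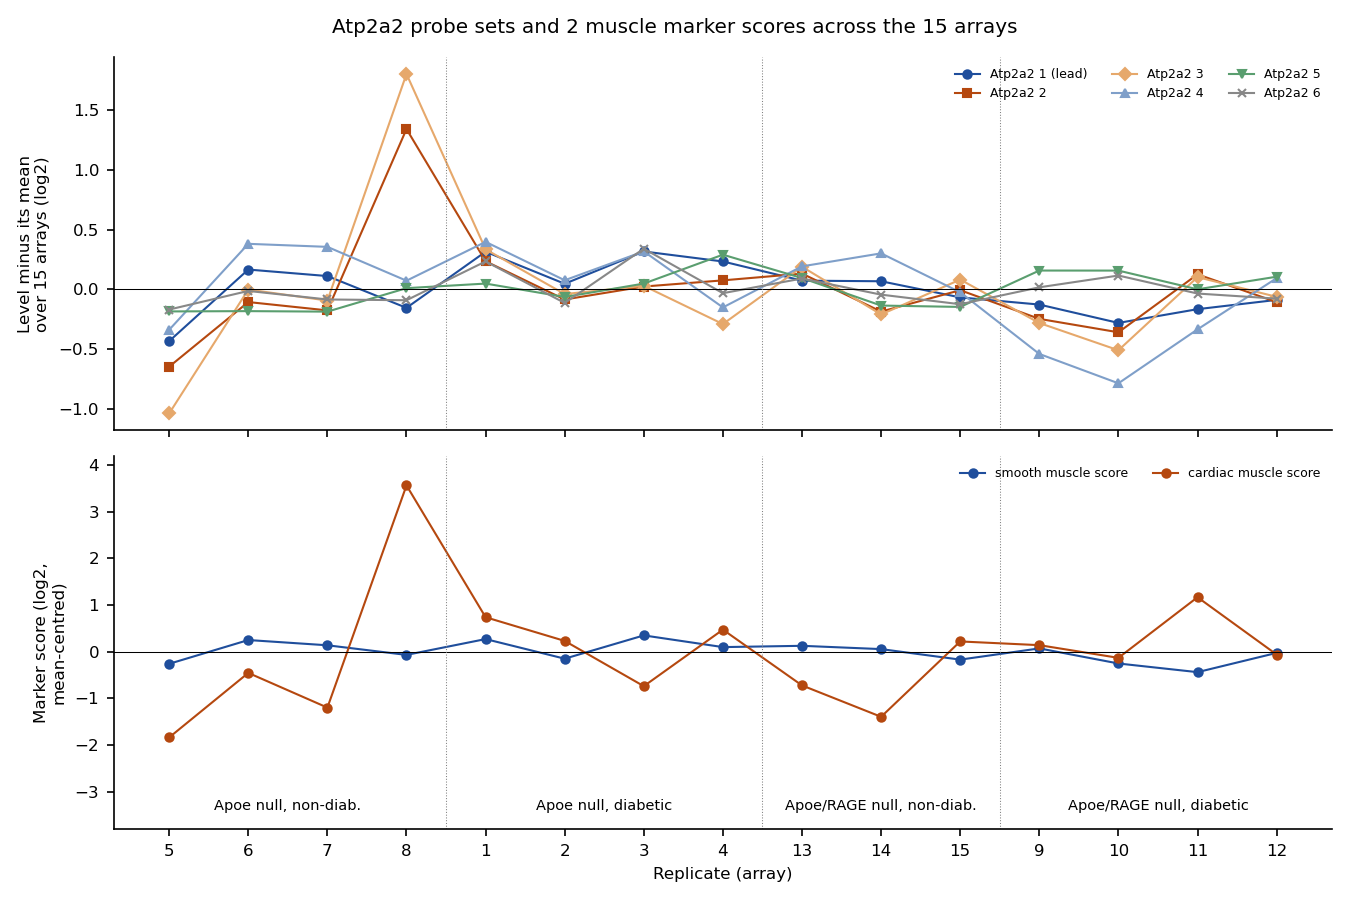
Top, level of each of the 6 Atp2a2 probe sets minus its own mean (log2) in the 15 arrays, ordered by group; numbers 1 to 6 run from the highest to the lowest mean, so 2 and 3 are 1416551_at and 1452363_a_at. Bottom, smooth and cardiac muscle marker scores (log2, mean-centred) of the same arrays; probe sets 2 and 3 and the cardiac score peak in replicate 8.

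Trpc6, a receptor-operated cation channel, was near the floor of the array. Its 1 probe set was at 2.08 to 2.36 on all arrays, and 3.05% of probe sets had a lower mean. The difference between the diabetic groups was 0.07 ± 0.07 (adjusted p = 0.719, limma), and no difference at this level can be read as a change in Trpc6.

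Diabetes in Apoe null aorta was compared next, with the same diabetic Apoe null arrays and the non-diabetic Apoe null arrays. Most members were higher with diabetes: 18 of 23 differences were positive, with a median of 0.20 against −0.0059 over all probe sets. An unadjusted p under 0.05 was reached by 6, all higher, against a background of 10.6% (5.78% higher), and none passed the test (adjusted p 0.348 to 0.992, limma). The 6 are all 3 probe sets of Abcc9, 2 of Atp2a2 and the lead of Cacnb2. In no member were the groups separate, against 6.07% of probe sets.

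Abcc9 had the smallest p here, with 0.47 ± 0.15 for 1420408_a_at (adjusted p = 0.348). That probe set was at 7.49, 7.93, 8.17 and 7.85 in non-diabetic and at 8.52, 8.02, 8.61 and 8.16 in diabetic Apoe null aorta, so that only the lower pair of diabetic arrays falls within the non-diabetic range. The lead of Abcc9 differed by 0.29 ± 0.13, that of Atp2a2 by 0.31 ± 0.12 and that of Cacnb2 by 0.48 ± 0.20. Kcna5 was lower, by −0.56 ± 0.29 (adjusted p = 0.511). The brown adipocyte score differed in the same comparison, with a mean of 0.34 ± 0.35 (SD, n = 4) without and −0.73 ± 0.66 (SD, n = 4) with diabetes. Over the 15 arrays its correlation was −0.913 with the Abcc9 lead, −0.809 with 1420408_a_at and −0.618 with the Atp2a2 lead, and 0.688 with Kcna5. The smooth muscle score had correlations of 0.738, 0.746, 0.824 and −0.762 with the same probe sets, in that order. These values are a description with no test. The part of brown adipocytes or of smooth muscle cells in the differences was not tested. The count of 6 changed with single arrays, and so did the background. It was 2 without diabetic replicate 1 or 3 or non-diabetic replicate 5, against backgrounds of 7.74%, 7% and 6.41%. Without diabetic replicate 2 it was 8, against 13.5%.

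In Apoe/RAGE null aorta the differences with diabetes were mostly negative, 16 of 23, with a median of −0.13 against −0.0174 over all probe sets. An unadjusted p under 0.05 was reached by 6, 5 lower and 1 higher, against a background of 7.26% (3.65% lower and 3.6% higher), and none passed the test (adjusted p 0.674 to 0.99, limma). The lower ones were both Kcnmb1 probe sets, at −0.55 each, the Cacna1c lead at −0.42 ± 0.16, Kcnma1 1425987_a_at at −0.40 ± 0.14 and Atp2a2 1427251_at at −0.55 ± 0.21, and the higher one was Kcnj8 at 0.37 ± 0.14. The groups were separate for the leads of Cacna1c and Atp2a2, both lower, against 6.49% of probe sets (4.08% lower). Without replicates 9 and 10 the count was 1, the Kcnma1 lead at −0.47 and none of the 6, against a background of 3.83%, and 18 of the 23 signs were kept. Kcnma1 1440728_at turned from 0.21 to −0.25 and 1457018_at from 0.33 to −0.41. The count was also 1 without replicate 10 alone (background 4.46%), and 2 without non-diabetic Apoe/RAGE null replicate 14 (background 4.9%).

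Without diabetes, the differences between the genotypes were small. No member had an unadjusted p under 0.05, against a background of 2.57%, and all adjusted p were 1 in limma. In none were the groups separate, against 4.77% of probe sets. Lead differences ranged from −0.07 ± 0.14 for Kcnj8 to 0.26 ± 0.31 for Kcna5, and the median over the 23 probe sets was 0.06 against −0.0027 over all probe sets.

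The difference of the diabetes effect between the genotypes was tested as an interaction. It was negative for 18 of 23 probe sets, with a median of −0.36 against 0.0018 over all. An unadjusted p under 0.05 was reached by 7, all lower, against a background of 7.22% (4.92% lower), and none passed the test (adjusted p 0.675 to 0.991, limma). The largest was that of the Kcnmb1 lead, −0.88 ± 0.35. The Atp2a2 lead had −0.50 ± 0.17 and the Cacna1c lead −0.56 ± 0.22. Kcna5 had 0.74 ± 0.43 (adjusted p = 0.745). The comparisons share groups, so they are no independent evidence of each other. Without replicates 9 and 10 the count was 8, against a background of 8.67%, and 5 of these were among the 7. With 1 array left out it was 3 without replicate 5 or 13, against backgrounds of 5.1% and 5.14%. It was 4 without replicate 1, 3 or 14 (5.53%, 5.12% and 5.75%) and 11 without replicate 2 (9.8%).

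**Figure D4:**
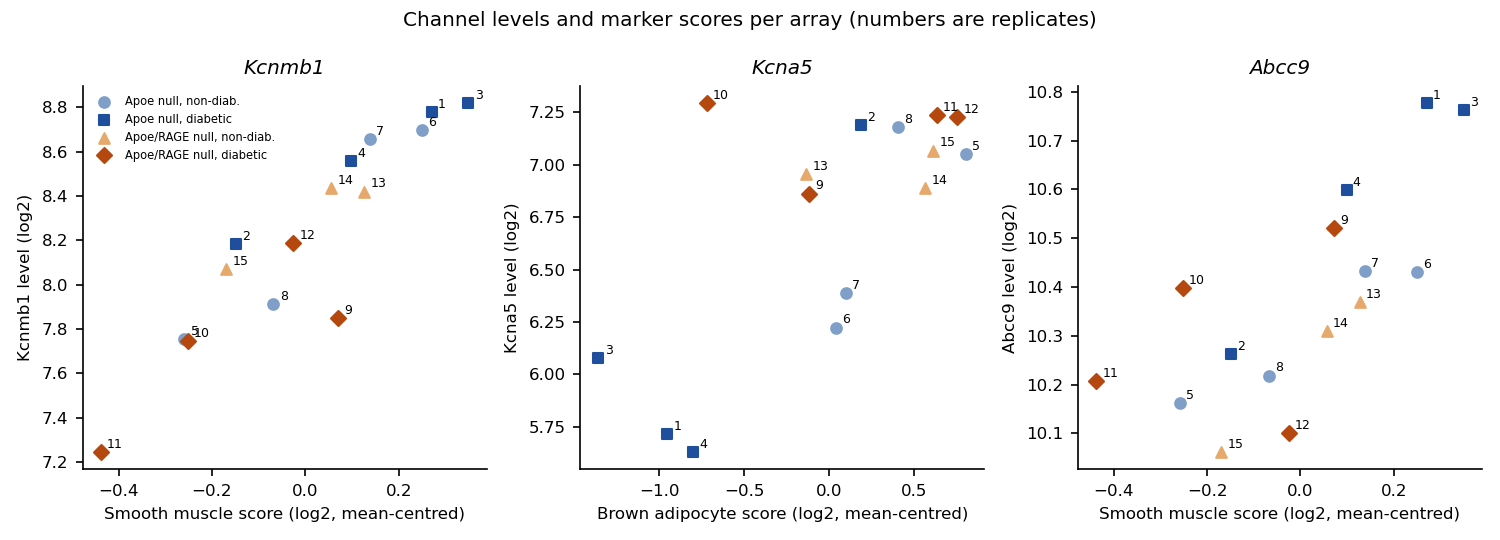
Levels of members (log2) against marker scores (log2, mean-centred) in the 15 arrays, each point an array coloured by group. The 3 arrays of lowest smooth muscle score are among those of lowest Kcnmb1, and 3 of the 4 diabetic Apoe null arrays combine low Kcna5 with a low brown adipocyte score.

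By Pearson correlation over the 15 arrays with the lead probe sets of 11126 genes above the median, each member had near neighbours in pattern. Those of Kcnmb1 were Efhd1 (r = 0.972), Ptgis (r = 0.97) and Cdc42se1 (r = 0.968), and that of Kcnma1 was Tpm2, a tropomyosin of smooth muscle (r = 0.953). Nearest to Cacna1c were Sgcb (r = 0.953), Lrrc17 and Efna5, and nearest to the Atp2a2 lead Phf2 (r = 0.974), Tmem43 and Msrb3. Abcc9 was most like Gstm2 (r = 0.964), Cacnb2 most like Slain2 (r = 0.911) and Kcnj8 most like Nav1 (r = 0.917). Kcna5 was most like Scarb1 (r = 0.927), Timp4 (r = 0.915) and Ampd3 (r = 0.897), and its own correlation with Abcc9 was −0.824 and with Kcnmb1 −0.77. Trpc6, near the floor, reached no more than r = 0.832, with Sgtb. These correlations are the highest of many and carry no test.

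Of 68 other channel, pump and exchanger genes listed, 59 were measured, and none passed the test in any comparison. Between the diabetic groups 18 of their lead probe sets had an unadjusted p under 0.05, 6 higher and 12 lower, against 17.9% of the lead probe sets of all genes. Their median difference was 0.014, against −0.35 for the 9 member leads. These sets differ in brightness. Of the member leads only Trpc6 was below the median probe set, while the 59 include several dim genes. Kcnj2, for example, was at 2.33 in diabetic Apoe null and 2.26 in diabetic Apoe/RAGE null aorta. A median of the brighter genes among the 59 was not computed. The smallest adjusted p was that of Ano1, the calcium-activated chloride channel, at 0.0793 in limma: its mean level in diabetic aorta was 9.38 ± 0.14 (SD, n = 4) with RAGE and 8.84 ± 0.21 (SD, n = 4) without it, a difference of −0.54 ± 0.13 (SE), and the groups did not overlap. Jph2, which holds the sarcoplasmic reticulum to the cell membrane, followed at −0.66 ± 0.16 (adjusted p = 0.0924), also with separate groups.

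Among potassium channels, Kcnd3 was at −0.58 ± 0.15 (adjusted p = 0.106), while Kcnk3, a background potassium channel, was at 0.96 ± 0.27 (adjusted p = 0.122) and Kcna2 at 1.05 ± 0.32 (adjusted p = 0.145) in the limma fit. Kcnk3, like Kcna5, was lower with diabetes in Apoe null aorta, by −0.78 ± 0.27 (adjusted p = 0.368). The cation channel Trpc1 was 0.50 ± 0.14 higher with diabetes in Apoe null aorta (adjusted p = 0.316), −0.51 ± 0.14 between the diabetic groups (adjusted p = 0.116) and had an interaction of −0.78 ± 0.21 (adjusted p = 0.675). Cacna2d1, a further subunit of the L-type channel, was at −0.48 ± 0.18 between the diabetic groups (adjusted p = 0.228).

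Genes of skeletal muscle calcium handling, Ryr1 and Atp2a1, had the largest differences of the list. With diabetes in Apoe/RAGE null aorta, Ryr1 was 2.95 ± 0.55 and Atp2a1 4.30 ± 0.90 higher, each with an adjusted p of 0.457 in limma and separate groups. The score of 10 skeletal muscle markers lay at 1.18 to 2.86 in diabetic and at −2.21 to −1.36 in non-diabetic Apoe/RAGE null aorta. In Apoe null aorta it was at −1.30 to 1.71 with and at −2.07 to 1.29 without diabetes. Atp2a1 is 1 of the 10 markers, so the score is not independent of its difference; Ryr1 is not. Of these markers 8 were above the median probe set, and the part of skeletal muscle in the differences was not tested.

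**Figure D5:**
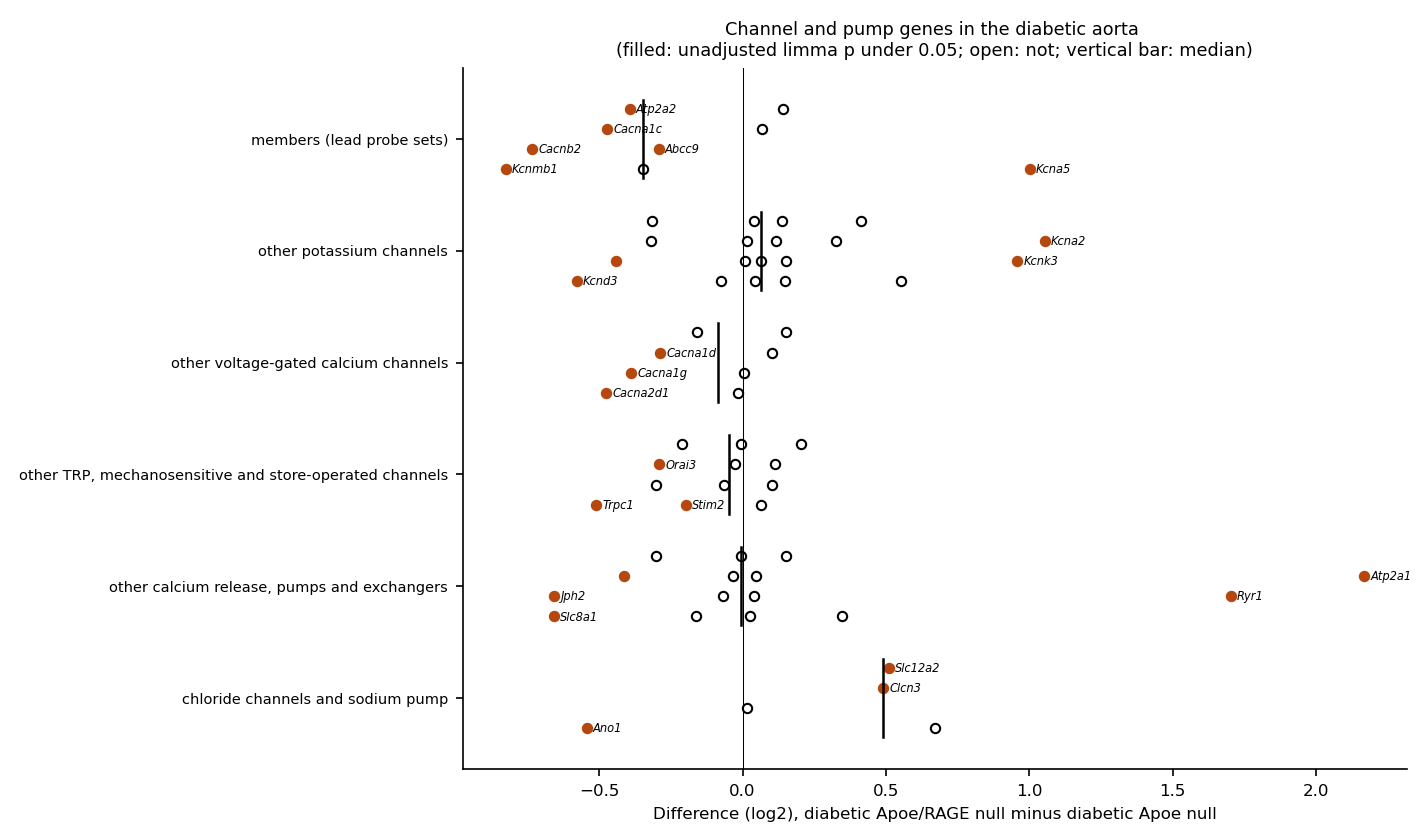
Difference (log2) between diabetic Apoe/RAGE null and diabetic Apoe null aorta for the lead probe sets of the 9 members and of 59 other channel genes by list; filled points have an unadjusted limma p under 0.05 and vertical bars are medians. The median of the members is −0.35 and that of the other genes together, several of them dim, 0.014. Ryr1 and Atp2a1 lie furthest above 0.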

How the data were processed

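Whole-aorta RNA of 15 mice was hybridised to Affymetrix arrays, 1 array per mouse as far as the labels say. The deposited values are log2 expression per probe set made by the authors with RMA, per the submitters' processing notes, which give no version. RMA corrects background, forces the arrays to 1 distribution and sums up probes, so a difference in total RNA cannot be seen. The series' design text can be read as normalizing each group's arrays on their own; with all arrays scaled together, by quantiles or by medians, still no member passed. Of 45101 rows, 64 control probe sets were left out. Of the rest, 34945 name 1 gene, 932 several and 9160 none here.

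From these values a linear model with 1 mean per group was fitted over all 15 arrays (limma 3.58.1 in R 4.3.3), with Benjamini-Hochberg adjustment over 45037 probe sets and a threshold of 0.05. Errors of differences are SE of this fit. The fit was tested on simulated data first. Precision is limited by the number of arrays. Named were all members, for each lead the nearest genes by correlation, and for each channel list up to 3 genes of smallest p per comparison, plus array checks. The members and lists were chosen with earlier results of these data known. Alternatives changed the samples fitted, the scaling, the variance model, the array weights, the filter on dim probe sets, the choice of probe sets, the call rule (limma's B above 0) and the arrays kept.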

Additional observations from a re-analysis of the deposited data

Results flagged for a closer look

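An array that stood far from the other 3 of its group was found in 3 of 69 groups of 4 values (each probe set in each group of 4 arrays), where chance alone gives 3.45 at the level used. Kcna5 (1417680_at) was at 6.86 in diabetic Apoe/RAGE null replicate 9, below the next array of the group at 7.23. Atp2a2 1437797_at was at 6.63 in non-diabetic Apoe null replicate 8, above the next array at 6.44. Kcnma1 1457018_at, a dim probe set, was at 3.95 in diabetic Apoe null replicate 1, above the next array at 3.75.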

How the results depend on the processing

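No member passed the adjusted threshold in any comparison under any alternative except without diabetic Apoe null replicate 2, where 2 passed between the diabetic groups (range 0 to 2 over single arrays left out, 0 to 0 in the other comparisons). Without that array 931 of all 45037 probe sets passed, against 110 with all arrays kept. With B above 0 as the rule, also no member was called. Counts at an unadjusted p under 0.05 with 1 array left out ran from 2 to 8 for diabetes in Apoe null, against backgrounds of 6.41% to 13.5%. For diabetes in Apoe/RAGE null they ran from 1 to 6 (4.46% to 14%), and between the diabetic groups from 10 to 14 (9.96% to 17.8%). They ran from 0 to 0 for RAGE deletion without diabetes (2.14% to 3.08%) and from 3 to 11 for the interaction (5.1% to 9.8%). With 1 lead probe set per gene, and so 9 values, the counts were 3 and 3 for diabetes in Apoe null and in Apoe/RAGE null. They were 6 between the diabetic groups and 4 for the interaction. In the fit over all probe sets, 2403, 1403, 3260 and 1560 of the 18193 lead probe sets of all genes reached this level, in that order. With the mean of a gene's probe sets the counts were 1, 3, 5 and 3, and their background is not given here. Without replicates 9 and 10 the count for diabetes in Apoe/RAGE null was 1, against a background of 3.83%, and the cause was not tested. Among the lead probe sets and gene means, the following signs turned; other probe sets turned too, among them Kcnma1 1440728_at and 1457018_at without replicates 9 and 10. For RAGE deletion without diabetes, array weights gave −0.12 for Kcnmb1 and −0.01 for both Cacna1c and Atp2a2, and the mean of probe sets gave 0.04 for Abcc9. For diabetes in Apoe/RAGE null, Abcc9 was −0.01 with the mean of probe sets and −0.09 without replicates 9 and 10, and Trpc6 0.03 with array weights. Between the diabetic groups Kcnj8 was −0.03 without replicates 9 and 10. The causes were not tested. With 1 array left out, RAGE deletion without diabetes ran from 0 to 0.23 for Kcnma1, −0.11 to 0.20 for Kcnmb1, −0.22 to 0.06 for Cacnb2, −0.16 to 0.07 for Kcnj8, −0.12 to 0.03 for Abcc9, 0 to 0.07 for Trpc6 and −0.02 to 0.18 for Atp2a2. Diabetes in Apoe/RAGE null ran from −0.03 to 0.13 for Abcc9 and −0.06 to 0.03 for Trpc6, and the interaction from −0.02 to 0.07 for Trpc6. No paired analysis was possible because no replicate number occurs in more than 1 group. Signal over background limits Trpc6 and the dim probe sets of Kcnma1, Kcnmb1, Cacnb2 and Atp2a2, which lie below the median probe set.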
